A study of Mus musculus with 12 samples.

Results

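The insulin-like growth factor (IGF) axis was described in mouse liver through 8 genes, Igf1, Igfals, Igfbp1, Igfbp2, Igfbp3, Igfbp4, Igfbp5 and Igfbp7. They were taken by gene symbol from 22180 named genes, with earlier results of these data known, and each of the 8 had 1 probe set on the array. RNA came from livers of male C57BL6 mice, and each of 12 samples was hybridised to 1 Affymetrix array. Feeding was ad libitum for 12 weeks, from 6 to 18 weeks of age. The low-fat control group ate a diet with 10% of energy from fat, and the low-fat MSX group ate the same diet with 0.5% (w/w) of MSX, a phenol-enriched maple syrup extract. The high-fat control group ate a diet with 45% of energy from fat, and the high-fat MSX group ate that diet with 0.5% (w/w) of MSX. Each group had 3 arrays, which the labels call biological replicates, and no batch is given. Levels below are the deposited log2 values, a difference is 1 group mean minus another on that scale, and a 1-unit difference is a doubling. An array compares a gene between samples but not 1 gene with another, so the levels of the 8 genes were not ranked against each other.

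IGF-I is a growth factor that circulates largely from the liver, where growth hormone drives its transcription through JAK2 and STAT5. In blood it is carried by binding proteins: IGFBP3 or IGFBP5 with IGF-I and the acid-labile subunit, the product of Igfals, forms a long-lived complex, while IGFBP1, IGFBP2 and IGFBP4 form smaller ones. Hepatic Igfbp1 and Igfbp2 are known to fall when insulin is high, Igfbp1 within hours through FOXO1 and Igfbp2 more slowly. In liver Igf1, Igfals, Igfbp1, Igfbp2 and Igfbp4 are known as hepatocyte genes, while Igfbp3, Igfbp5 and Igfbp7 come mostly from endothelial, stellate and other non-parenchymal cells. IGFBP7 binds IGFs weakly and is a matrix and vessel-associated protein. In pieces of whole liver, fewer cells of a type and less RNA per cell cannot be told apart.

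All 8 genes had at least 1 promoter window in the RefSeq table of build GRCm38.p6, each window running from 250 bases before a transcription start to 50 bases after it. The 4 windows below are shown because Igfbp2 was the member that passed the test, Igf1 and Igfals varied together over the arrays, and Igfbp1 holds the insulin response sequence known from textbooks. All 4 genes lie on the plus strand. Capitals mark matches, on either strand and with overlaps allowed, to GGGCGG (a GC box), CAAAACAA (part of that insulin response sequence), GTAAACA (a FOXO consensus), TTCNNNGAA (the palindrome that STAT factors bind) and TATAAA (the TATA box).
Igfbp2, first start, chr1:72824230-72824529: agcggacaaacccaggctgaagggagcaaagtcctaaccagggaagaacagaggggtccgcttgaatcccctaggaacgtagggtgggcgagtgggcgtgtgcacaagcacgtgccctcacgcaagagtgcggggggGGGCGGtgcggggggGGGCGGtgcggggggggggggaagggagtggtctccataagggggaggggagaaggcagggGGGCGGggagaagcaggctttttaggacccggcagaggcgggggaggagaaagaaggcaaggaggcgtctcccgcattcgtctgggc
Igfbp1, chr11:7197537-7197836: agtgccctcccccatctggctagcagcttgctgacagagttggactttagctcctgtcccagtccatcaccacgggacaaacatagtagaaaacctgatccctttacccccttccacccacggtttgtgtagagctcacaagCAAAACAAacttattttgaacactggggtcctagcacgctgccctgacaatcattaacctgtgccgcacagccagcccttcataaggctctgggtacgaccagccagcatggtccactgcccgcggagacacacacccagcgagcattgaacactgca
Igf1, chr10:87860861-87861160: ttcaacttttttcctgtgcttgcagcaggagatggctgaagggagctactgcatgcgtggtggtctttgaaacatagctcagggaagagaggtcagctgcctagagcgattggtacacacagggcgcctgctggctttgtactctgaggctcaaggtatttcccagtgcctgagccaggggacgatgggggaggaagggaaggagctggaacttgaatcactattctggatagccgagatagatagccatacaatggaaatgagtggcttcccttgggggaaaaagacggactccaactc
Igfals, second start, chr17:24877981-24878280: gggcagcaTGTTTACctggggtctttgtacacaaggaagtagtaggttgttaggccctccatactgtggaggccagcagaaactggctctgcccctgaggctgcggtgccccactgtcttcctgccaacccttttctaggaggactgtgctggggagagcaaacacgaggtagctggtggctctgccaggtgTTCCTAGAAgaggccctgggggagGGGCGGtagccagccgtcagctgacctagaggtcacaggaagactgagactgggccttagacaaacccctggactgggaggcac

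The first window of Igfbp2 had 3 GGGCGG matches, which began 113, 98 and 37 bases before the start, and a GC content of 67%. Of 32851 windows of 300 bases in the table, 35.7% held GGGCGG. The window of Igfbp1 had CAAAACAA 108 bases before the start, a match found in 2.51% of windows. The second window of Igfals had TTCNNNGAA, as TTCCTAGAA, 58 bases before the start, and GTAAACA on the other strand 242 bases before it. It is the one of 3 Igfals windows with the match to TTCNNNGAA nearest to the start, and was picked for that after the matches were seen. The first Igfals window had TTCNNNGAA 236 bases before the start, and the third had 2 GGGCGG matches and none to TTCNNNGAA or GTAAACA. TTCNNNGAA was found in 8.3% of windows and GTAAACA in 3.65%. The window of Igf1 and the second window of Igfbp2 held none of the 5 motifs. Among the other 4 genes, Igfbp4 had TATAAA 28 bases before its start, Igfbp7 had 4 GGGCGG matches, and those of Igfbp3 and Igfbp5 held none of the 5. Over all windows TATAAA was found in 13.6%. These are matches of letters, and binding was not measured. In the same assembly Igfbp2 and Igfbp5 are neighbouring coding genes on chromosome 1, and Igfbp1 and Igfbp3 are neighbours on chromosome 11, with the genes of each pair on opposite strands and their ends facing each other.

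Igfbp2, a binding protein secreted by hepatocytes, was the gene of the 8 that passed the test, and it fell with the high-fat diet. Low-fat control arrays were at 10.91, 11.12 and 11.06 on the log2 scale, and high-fat control arrays at 9.74, 9.66 and 9.81. The groups did not overlap and were separated by more than 1 log2 unit. The fall was 1.29 on the log2 scale (SE 0.15, 95% interval −1.61 to −0.98; adjusted p = 0.00519 by limma), a level 2.45-fold lower on the high-fat diet. Of the 22180 genes Igfbp2 ranked 2 by p in this comparison, in which 0.0180% of genes passed. With each of the 6 arrays left out in turn, the log2 difference lay between −1.35 and −1.25, and adjusted p went from 0.0317 to 0.05004, the highest, which missed the threshold, without low-fat control replicate 3.

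With the extract, Igfbp2 lay between both control levels on either diet. Low-fat MSX arrays were at 10.18, 10.15 and 10.73, so that each was below each low-fat control array, with replicate 3 nearest to them. High-fat MSX arrays were at 10.13, 10.16 and 10.15, each above each high-fat control array. The group means ran from low-fat control (11.03 ± 0.11, SD, n = 3) over low-fat MSX (10.35 ± 0.33) and high-fat MSX (10.15 ± 0.01) to high-fat control (9.74 ± 0.08). Of neighbours in this order, only the MSX groups overlapped. For MSX against control on the low-fat diet the log2 difference was −0.68 (SE 0.15, 95% interval −0.99 to −0.36) and missed the threshold (adjusted p = 0.123, limma). It passed without low-fat MSX replicate 3, at −0.86 (adjusted p = 0.0135), and also when dim genes were left out of the adjustment (adjusted p = 0.0475) or an intensity trend and a robust prior were used together (adjusted p = 0.0307). On the high-fat diet the log2 difference for MSX against control was 0.41 (SE 0.15, 95% interval 0.10 to 0.73; adjusted p = 0.639). Between the MSX groups the diet difference was −0.21 (SE 0.15, 95% interval −0.52 to 0.11; adjusted p = 0.999). These comparisons share control or MSX arrays in pairs and are not independent of each other.

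The test of the difference between the extract effects on both diets gave 1.09 for Igfbp2 on the log2 scale (SE 0.21, 95% interval 0.64 to 1.53). Its unadjusted limma p was 0.000145, rank 2 of 22180 genes, and it missed the threshold after adjustment (adjusted p = 0.664), as did each of the other genes tested. The 91 genes whose groups did not overlap on either diet, with opposite directions, were 0.410% of all genes, and Igfbp2 was the one of the 8 among them. Averaged over both extract states, Igfbp2 fell by 0.75 with the high-fat diet (SE 0.10, adjusted p = 0.0369 by limma), where 0.0225% of genes passed. That call was lost in 9 of 12 cases with 1 array left out, at adjusted p up to 0.167: without any of the 3 low-fat control, the 3 high-fat control or the 3 high-fat MSX arrays. Averaged over both diets, MSX against control was at −0.13 (SE 0.10, adjusted p = 0.739), a mean of values of opposite sign.

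**Figure D1:**
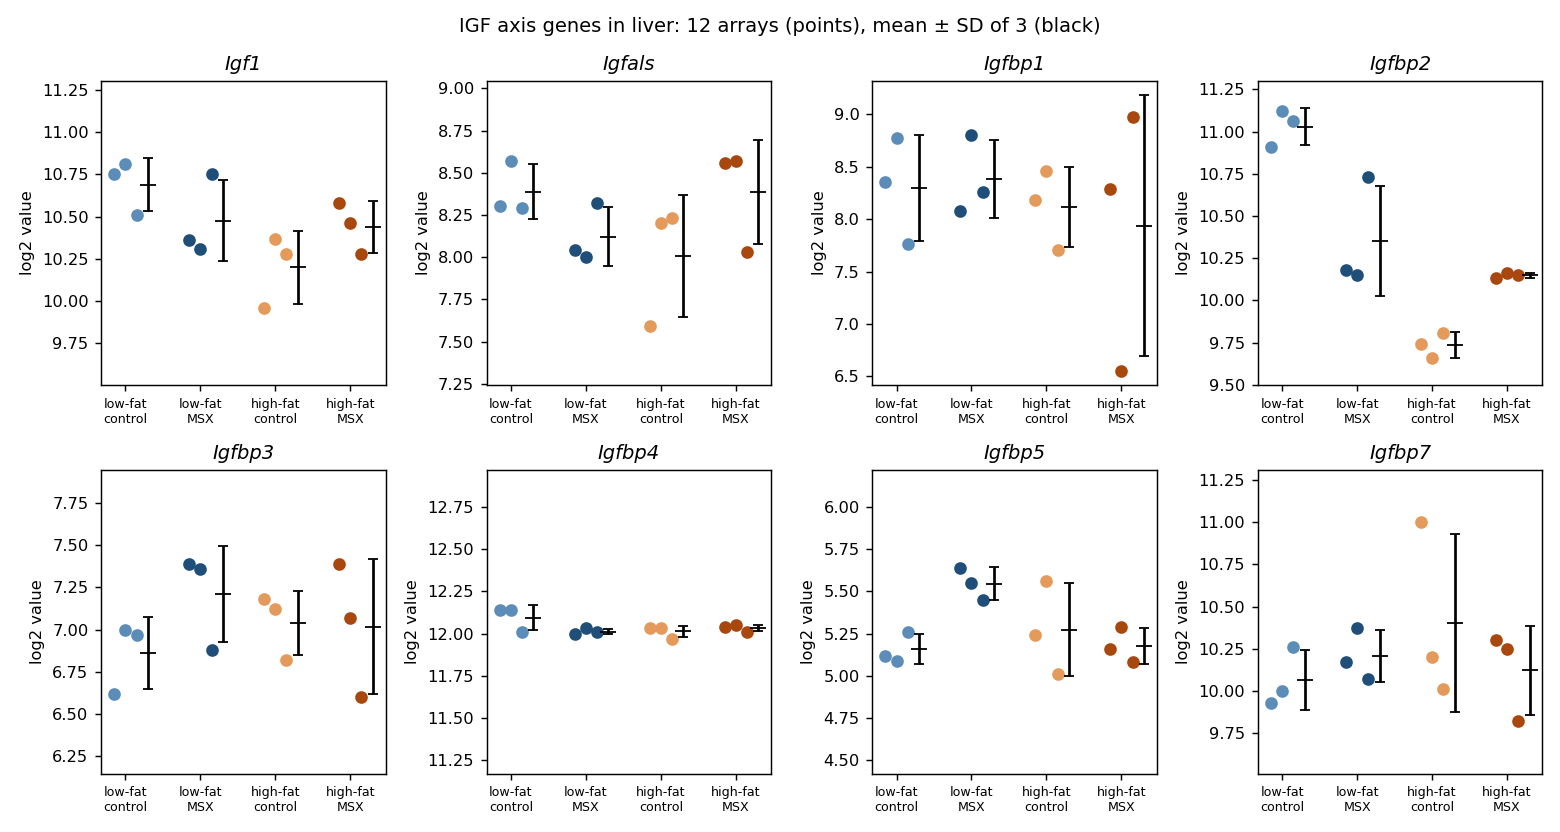
Log2 level of each of the 8 genes in the 12 arrays (points, with replicates 1 to 3 from left to right in each group) and the mean ± SD of each group of 3 (black). Each panel has its own axis, of at least 1.8 log2 units. Igfbp2 separates into high low-fat control arrays (10.91 to 11.12), low high-fat control arrays (9.66 to 9.81) and MSX arrays between them, while Igfbp4 stays between 11.97 and 12.14.

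Igf1, the growth factor itself, did not pass the test in any of the 7 comparisons. Low-fat control arrays were at 10.75, 10.81 and 10.51, and high-fat control arrays at 9.96, 10.37 and 10.28. The high-fat control arrays lay below the low-fat control arrays without overlap, with a log2 difference of −0.49 (SE 0.16, 95% interval −0.82 to −0.15; unadjusted p = 0.00765, adjusted p = 0.555 by limma). High-fat control replicate 1 was the lowest of the 12 arrays, and with 1 array left out the difference lay between −0.58 and −0.37. Low-fat MSX arrays were at 10.36, 10.31 and 10.75, and high-fat MSX arrays at 10.58, 10.46 and 10.28, so that these groups overlapped with each other and with their controls. For MSX against control the log2 difference was −0.21 on the low-fat diet (SE 0.16, 95% interval −0.55 to 0.12) and 0.24 on the high-fat diet (SE 0.16, 95% interval −0.10 to 0.57). The difference of these was 0.45 (SE 0.22, 95% interval −0.02 to 0.93; adjusted p = 0.955). From low to high the means were 10.20 ± 0.22 in the high-fat control group, 10.44 ± 0.15 with MSX on that diet, 10.48 ± 0.24 in the low-fat MSX group and 10.69 ± 0.16 in the low-fat control group (SD, n = 3), and each group overlapped with its neighbour in this order.

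Igfals encodes the acid-labile subunit that keeps IGF complexes in the blood, and it is a growth hormone target like Igf1. Low-fat control arrays were at 8.30, 8.57 and 8.29, and high-fat control arrays at 7.59, 8.20 and 8.23. Again the high-fat control arrays lay below the low-fat ones without overlap, by a margin of less than 0.1 apart from replicate 1, the lowest of the 12 arrays. The log2 difference was −0.38 (SE 0.19, 95% interval −0.80 to 0.04; adjusted p = 0.766), and −0.17 without high-fat control replicate 1. Low-fat MSX arrays were at 8.04, 8.0 and 8.32, and high-fat MSX arrays at 8.56, 8.57 and 8.03. The extract difference was −0.27 on the low-fat diet (SE 0.19, 95% interval −0.68 to 0.15) and 0.38 on the high-fat diet (SE 0.19, 95% interval −0.04 to 0.80). Their difference was 0.65 (SE 0.27, 95% interval 0.06 to 1.24; unadjusted p = 0.0341, adjusted p = 0.955 by limma), and between 0.44 and 0.83 with 1 array left out. High-fat against low-fat was thus at −0.38 for Igfals without extract and at 0.27 with it (SE 0.19 each), neither past the threshold.

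**Figure D2:**
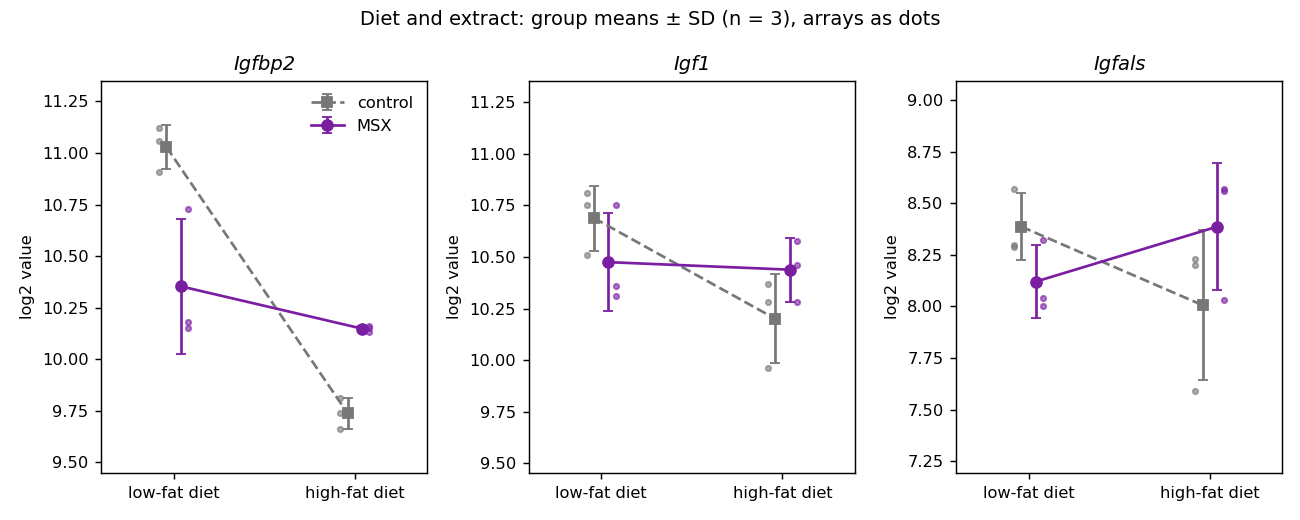
Log2 level of Igfbp2, Igf1 and Igfals on the low-fat and high-fat diets, as group means ± SD of 3 arrays (squares with dashed lines for control, circles with solid lines for MSX) and single arrays (dots). Every panel spans 1.9 log2 units. The lines cross in each panel: the control means fall from low-fat to high-fat by 1.29 for Igfbp2, and MSX lies below control on the low-fat diet and above it on the high-fat diet.

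Igfbp1, the fast insulin-repressed binding protein, varied more between arrays of a group than nearly any other gene. Its SD within groups lay at percentile 99.8 of all genes. Low-fat control arrays were at 8.35, 8.77 and 7.76, and low-fat MSX arrays at 8.08, 8.80 and 8.26. High-fat control arrays were at 8.18, 8.46 and 7.71. High-fat MSX replicates 1 to 3 were at 8.29, 6.55 and 8.97, which hold the lowest and the highest value of the 12 arrays. The groups overlapped in all comparisons. The log2 difference for diet without extract was −0.18 with a 95% interval from −1.19 to 0.83. That interval included a fall of 1 log2 unit but not a rise of 1 log2 unit. For MSX against control the log2 difference was −0.17 on the high-fat diet (95% interval −1.19 to 0.84) and 0.09 on the low-fat diet (95% interval −0.93 to 1.10), with adjusted p of 0.982 and 0.979. Without high-fat MSX replicate 2 the former was 0.52.

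Igfbp4, an inhibitory IGF binding protein made by hepatocytes, was the steadiest of the 8. All 12 arrays lay between 11.97 and 12.14, and its SD within groups lay at percentile 0.135 of all genes. The log2 differences in the 4 comparisons of 2 groups lay between −0.08 and 0.02, with SE 0.10. For diet without extract the 95% interval was −0.29 to 0.13.

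Igfbp5 can carry IGF-I in the large complex. Its mean over the 12 arrays was 5.29, near the 5.10 of the median gene, so its signal was low on a rough reading. Low-fat MSX arrays were at 5.64, 5.55 and 5.45, above low-fat control arrays at 5.12, 5.09 and 5.26 and above high-fat MSX arrays at 5.16, 5.29 and 5.08, without overlap in either case. High-fat control arrays were at 5.24, 5.56 and 5.01 and overlapped with the 3 other groups. The log2 difference was 0.39 for MSX against control on the low-fat diet (SE 0.14, 95% interval 0.09 to 0.69; unadjusted p = 0.0147, adjusted p = 0.475 by limma). Between the MSX groups it was −0.37 for the diet (SE 0.14, 95% interval −0.67 to −0.07; unadjusted p = 0.0190, adjusted p = 0.999 by limma). For MSX against control on the high-fat diet it was −0.10 (95% interval −0.40 to 0.20). The difference of the extract effects was −0.49 (SE 0.20, unadjusted p = 0.0273, adjusted p = 0.955 by limma).

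Igfbp3, the main carrier of IGF-I in blood, ranged from 6.60 to 7.39 and its groups overlapped in all comparisons. Low-fat control arrays were at 6.62, 7.0 and 6.97, low-fat MSX arrays at 7.39, 7.36 and 6.88, high-fat control arrays at 7.18, 7.12 and 6.82, and high-fat MSX arrays at 7.39, 7.07 and 6.60. Its largest log2 difference in comparisons of 2 groups was 0.35, for MSX against control on the low-fat diet (SE 0.20, 95% interval −0.09 to 0.79; adjusted p = 0.707).

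Igfbp7, the matrix-associated member, was set by 1 array. High-fat control replicate 1 was at 11.001, and the other 11 arrays lay between 9.82 and 10.37. Low-fat control arrays were at 9.93, 10.00 and 10.26, low-fat MSX arrays at 10.17, 10.37 and 10.07, and high-fat MSX arrays at 10.30, 10.25 and 9.82. The other high-fat control arrays were at 10.20 and 10.01. The log2 difference for diet without extract was 0.34 (SE 0.22, 95% interval −0.14 to 0.82; adjusted p = 0.824), and 0.04 without that array. On the high-fat diet MSX against control was at −0.28 (SE 0.22, adjusted p = 0.862), and at 0.02 without it.

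Markers of the cell types of liver were set beside these values. As a check of the tissue, the 6 hepatocyte markers had 12-array averages from 9.81 (Serpina1a) to 13.9 (Alb). The 3 white adipocyte markers were at 2.51 (Adipoq), 3.89 (Lep) and 4.58 (Retn). The 3 pancreas markers were at 2.20 (Amy2b), 4.29 (Prss1) and 6.00 (Cela1). Since an array does not compare 1 gene with another, these levels are a rough check only. The hepatocyte markers' median deviation, each marker being centred on its own 12-array average, lay between −0.07 and 0.05 in all arrays. In high-fat control replicate 1, where Igfbp7 lay 0.80 above its own mean, the 10 stellate and fibroblast markers lay at 0.50, the 7 Kupffer and macrophage markers at 0.55 and the cholangiocyte markers, 4 of 5 measured, at 0.48. Each of these was the highest of the 12 arrays, and so were the lymphocyte markers, 5 of 6 measured, at 0.52. In the same array the hepatocyte markers (−0.07), Igf1 (−0.49) and Igfals (−0.64) were at their lowest of the 12 arrays. In high-fat control replicates 2 and 3 the Kupffer and macrophage markers lay at 0.35 and −0.64, the latter the lowest of the 12 arrays. Igfbp7 lay at −0.002 and −0.19 there. The 8 endothelial markers lay at 0.09, 0.10 and −0.25 in high-fat control replicates 1 to 3. Their range was −0.40 to 0.04 in the low-fat control group. It was −0.08 to 0.23 in the low-fat MSX group and −0.07 to 0.24 in the high-fat MSX group. The log2 summed level of the hepatocyte markers was 15.67 to 15.68 in low-fat controls and 15.66 to 15.69 with MSX on that diet. It was 15.61 to 15.64 in high-fat controls, below all other arrays, and 15.65 to 15.69 with MSX on that diet. For diet without extract 5 of 6 hepatocyte markers were below 0 (median log2 difference −0.07). Of these 6, 1 had an unadjusted p under 0.05 and 0 passed in limma. That of the stellate and fibroblast markers was 11.2 to 11.4 in low-fat controls, 11.4 to 11.6 with MSX on that diet, 11.4 to 12.1 in high-fat controls and 11.1 to 11.5 with MSX on that diet. Of these 10 markers, 9 were above 0 for diet without extract (median log2 difference 0.44), 10 were above 0 for MSX on the low-fat diet (median 0.18) and 8 were below 0 for MSX on the high-fat diet (median −0.28). For the difference of the extract effects all 10 were below 0 (median −0.60), and 0 of 10 passed in limma in these comparisons, with 4, 1, 4 and 4 at an unadjusted p under 0.05. In each of these 4 comparisons the median had the opposite sign to Igfbp2. The same held for the Kupffer and macrophage, cholangiocyte and lymphocyte medians, so it was not particular to that list. Hepatocyte medians had the sign of Igfbp2 in all 4. The endothelial median had the opposite sign except for MSX on the high-fat diet (0.17). Some of these medians were close to 0, such as −0.003 for hepatocyte markers with MSX on the low-fat diet. The 4 comparisons share arrays, and the last is the difference of 2 others, so these signs are not separate observations. In high-fat control replicates 1 to 3 the stellate and fibroblast deviation was 0.50, −0.15 and 0.00, so that replicate 1 stood apart. A relation of these markers to Igfbp2 was not tested. The part of these cell types, hepatocytes among them, in the values of the 8 genes was not tested. Without high-fat control replicate 1 the log2 difference of Igfbp2 for diet without extract stayed within the −1.35 to −1.25 given above. That is no test of the cell types, since the hepatocyte sums of the other high-fat control arrays were also below those of all other groups.

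**Figure D3:**
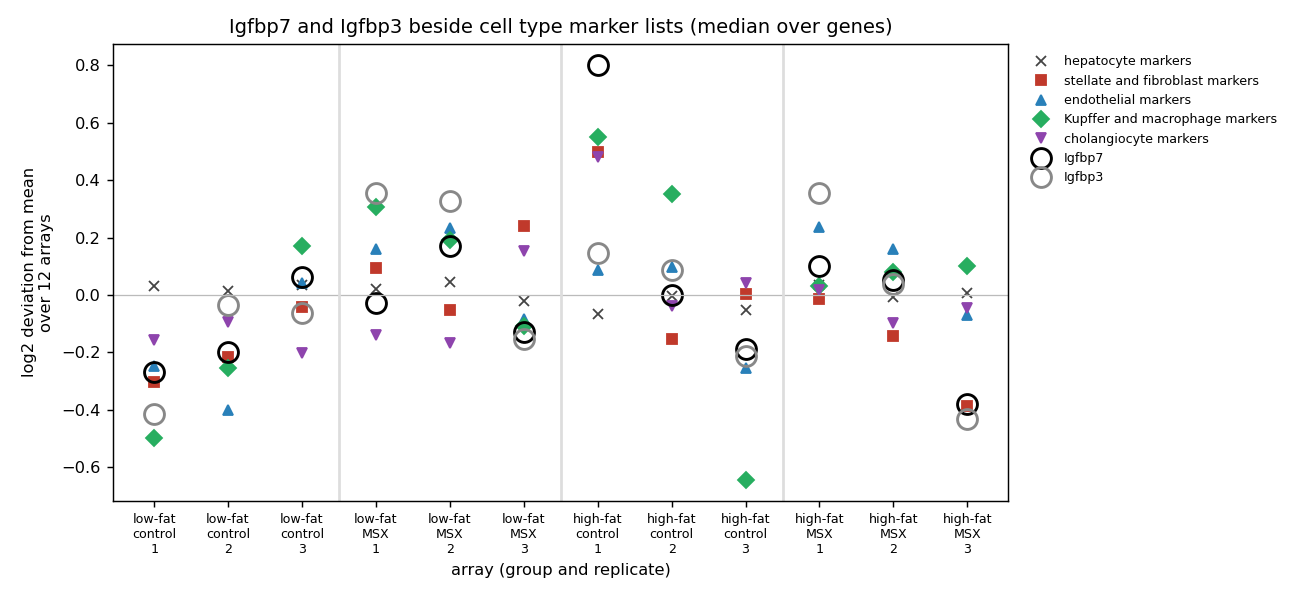
Deviation of Igfbp7 and Igfbp3 (rings) from their mean over the 12 arrays, in log2 units, beside the median deviation of 5 marker lists (symbols), for each array in order of group and replicate. High-fat control replicate 1 stands at 0.80 for Igfbp7 with the stellate, Kupffer and cholangiocyte lists near 0.5, while the hepatocyte list stays near 0 in all arrays.

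Counted over the 8 genes, 0 rose and 1 fell with the high-fat diet without extract, where 0.0135% of all genes rose and 0.00451% fell, and 5 of 8 differences were below 0, with a median of −0.13 against 0.00 over all genes. Groups did not overlap for 3 of the 8, Igf1, Igfals and Igfbp2, where 11.4% of all genes did not overlap, and 2 of 8 had an unadjusted p under 0.05 against 6.78% of all genes. With MSX on the high-fat diet 0 of 8 passed in limma, where 0.0361% of genes passed, and 1 of 8, Igfbp2, had an unadjusted p under 0.05 and groups that did not overlap, against 6.99% and 12.2% of genes. On the low-fat diet 0 of 8 passed with MSX in limma, where 0.158% of genes passed, and 2 of 8, Igfbp2 and Igfbp5, had an unadjusted p under 0.05 and no overlap, against 8.05% and 13.9%. Between the MSX groups 0 of 8 and 0 of all genes passed, and 1 of 8, Igfbp5, had an unadjusted p under 0.05, against 4.56%, and no overlap, against 9.44%. For the difference of the extract effects 0 of 8 and 0 of all genes passed, and 3 of 8, Igfbp2, Igfals and Igfbp5, had an unadjusted p under 0.05, against 5.09%. For the average diet effect 0 of 8 rose and 1 fell, against 0.0180% and 0.00451% of all genes, and 2 of 8, Igfbp2 and Igf1, had an unadjusted p under 0.05, against 5.94%. For the average extract effect 0 of 8 passed and 0 of 8 had an unadjusted p under 0.05, where 0.261% and 9.66% of all genes did. With so few members, none of these counts was tested against the background.

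**Figure D4:**
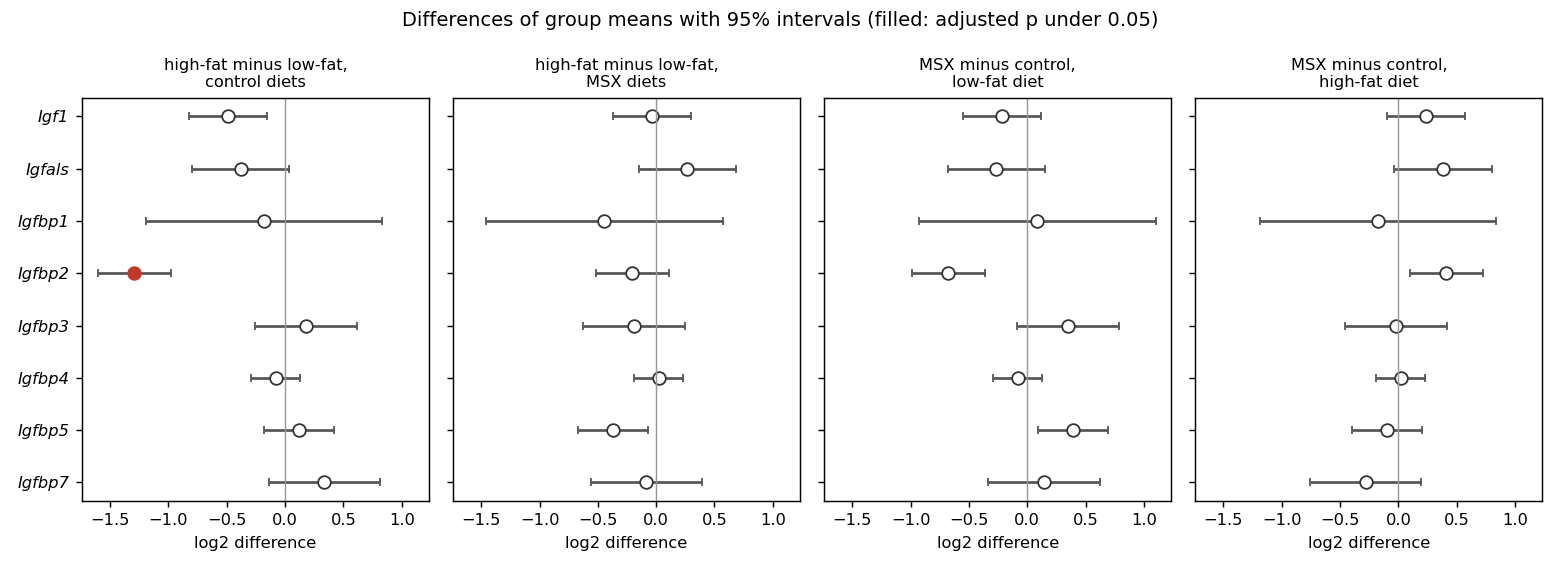
Log2 differences between 2 group means for the 8 genes in the 4 comparisons of 2 groups, with 95% intervals from the fit over all 12 arrays. Filled points passed the threshold of adjusted p under 0.05: this was Igfbp2 at −1.29 for diet without extract. Igfbp1 has the widest intervals and Igfbp4 the narrowest.

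The members were compared with each other over the 12 arrays in 28 pairs. Igf1 and Igfals varied together, with Pearson r = 0.81 (permutation p = 0.0018, adjusted over the 28 pairs 0.0252) and Spearman rho = 0.85 (permutation p = 0.00076, adjusted 0.0213). Without the 2 arrays farthest from the median of Igf1, high-fat control replicate 1 and low-fat control replicate 2, r was 0.55. Within groups, taken on residuals from the 4 group means, it was 0.86. Igf1 and Igfbp2 had r = 0.79 (permutation p = 0.00164, adjusted 0.0252) and rho = 0.70 (permutation p = 0.0142, adjusted 0.133), with r = 0.71 without the same 2 arrays and 0.53 within groups. These were the 2 of 28 pairs past an adjusted p of 0.05 by Pearson r, and only the first passed by Spearman rho. Igfbp3 and Igfbp7 had r = 0.60 (permutation p = 0.0330, adjusted 0.236) and rho = 0.73 (permutation p = 0.00937, adjusted 0.131), with r = 0.39 without the 2 arrays farthest from the median of Igfbp3 and 0.64 within groups. The neighbouring genes Igfbp2 and Igfbp5 had r = −0.22 and rho = −0.03 (permutation p = 0.483 and 0.921), with r = −0.06 without 2 arrays. The neighbours Igfbp1 and Igfbp3 had r = −0.07 and rho = −0.10 (permutation p = 0.828 and 0.748), with r = 0.25 without 2 arrays. Arrays of a group share diet and extract, so that a pooled r also holds the group differences.

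**Figure D5:**
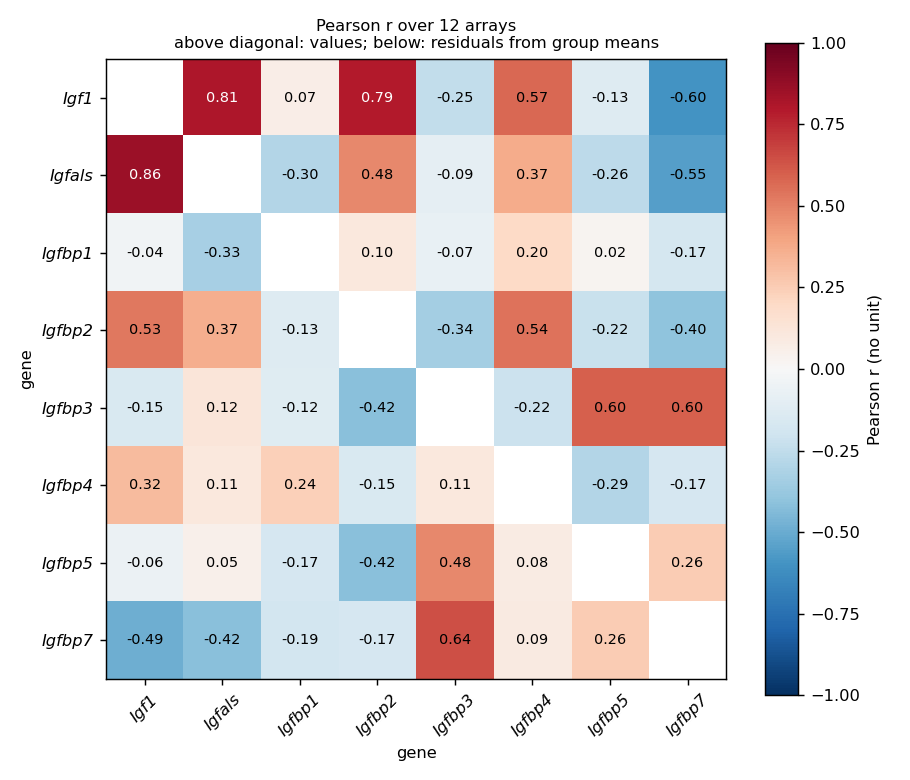
Pearson r between each 2 of the 8 genes over the 12 arrays: above the diagonal from the log2 values, below it from residuals after the 4 group means were removed. Igf1 with Igfals stands high in both (0.81 and 0.86), and Igf1 with Igfbp2 is higher in the pooled values (0.79) than within groups (0.53).

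For each member the 3 genes of highest Pearson r over the 12 arrays were read out of 10508 genes with a mean above that of the median gene, provisional names left out. They were picked as the highest of many, so that their r values are descriptions. For Igfbp2 these were Phyh, a peroxisomal enzyme of branched fatty acid oxidation (r = 0.90), Chd3, a chromatin remodeller (r = 0.89), and Got1, an aspartate aminotransferase (r = 0.85). Within groups their r with Igfbp2 was 0.27, 0.37 and 0.25, so that the likeness lay mainly in the group means. Phyh also came first for Igf1 (r = 0.91, and 0.85 within groups), followed by Dbt, a subunit of the branched-chain keto acid dehydrogenase (r = 0.90, and 0.85 within groups), and Zbed5 (r = 0.84). Phyh had means of 11.67 ± 0.09 in low-fat control, 11.51 ± 0.05 in low-fat MSX, 11.48 ± 0.08 in high-fat MSX and 11.33 ± 0.04 in high-fat control arrays (SD, n = 3), the same order as for Igfbp2 and Igf1. For Igfbp7 the nearest were Susd2, Lama4, a laminin chain of vessel basement membranes, and Cadm3 (r between 0.93 and 0.95, and between 0.93 and 0.94 within groups). Igfbp3 had Prpf38b, Tinagl1 and Zer1, Igfbp5 had Pde8a, Jcad and Heatr5b, Igfals had Cep89, Ppp4r4 and Utp3, Igfbp4 had Auh, Ccar2 and Lypd3, and Igfbp1 had Dnajb5, Fbxl22 and Slc41a3, with r between 0.86 and 0.92.

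Of 24 other genes of the IGF and growth hormone pathway, 22 were measured, and 0 of 22 passed in limma in any of the 7 comparisons. For diet without extract 1 had an unadjusted p under 0.05 upward and 3 downward. That is 4 of 22, where 6.78% of all genes had such a p. With MSX on either diet this was 1 upward and 1 downward, 2 of 22, against 6.99% of all genes on the high-fat and 8.05% on the low-fat diet. The median log2 difference of the 22 lay between −0.06 and 0.02 over the 7 comparisons. Pcsk6, a proprotein convertase of the family that processes growth factor precursors, was lower in all 6 MSX arrays (9.13 to 9.45) than in all 6 control arrays (9.47 to 9.71). Its average extract difference was −0.28 (SE 0.07, unadjusted p = 0.00166, adjusted p = 0.158 by limma). That was the lowest p of the 22 in this comparison, in which 9.66% of all genes had an unadjusted p under 0.05. The share of all genes with the 6 MSX arrays on 1 side of the 6 control arrays was not counted. Irs2, an adaptor of the insulin and IGF-I receptors, was at 7.27 ± 0.19 in high-fat control and 7.92 ± 0.17 in high-fat MSX arrays (SD, n = 3), without overlap, with a log2 difference of 0.64 (SE 0.19, adjusted p = 0.527). For diet without extract it was at −0.44 (SE 0.19, adjusted p = 0.698). Jak2, the kinase bound to the growth hormone receptor, was higher in each low-fat MSX than in each low-fat control array, by 0.35 (SE 0.12, adjusted p = 0.447 by limma). It was also higher in each high-fat control array than in each low-fat control array, by 0.27 (adjusted p = 0.717). Igfbp6, a binding protein that prefers IGF-II, was at −0.39 for the diet between the MSX groups (SE 0.17, adjusted p = 0.999). Pappa, a protease that cleaves IGFBP4, was at −0.32 for the average diet effect (SE 0.12, adjusted p = 0.723). Ghr, the growth hormone receptor, had log2 differences between −0.09 and 0.20 in the 4 comparisons of 2 groups.

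A list of 11 liver genes held targets of insulin and FOXO1 and genes of their signalling, with Irs2 and Insr again among them. Of these, 10 were measured, and 0 of 10 passed in limma in any of the 7 comparisons. Because the list is mixed, its counts and medians have no single meaning for insulin action. For diet without extract 0 had an unadjusted p under 0.05 upward and 3 downward, against 6.78% of all genes in either direction. Of the 10 differences 9 were below 0, with a median of −0.15 against 0.00 over all genes. For diet with extract 0 were upward and 4 downward at that p, against 4.56% of all genes. There 8 of 10 differences were below 0, with a median of −0.17. The average diet effect had 0 upward and 4 downward, against 5.94%, and 9 of 10 below 0. MSX had 1 upward and 1 downward on the high-fat diet, against 6.99%, and 1 and 0 on the low-fat diet, against 8.05%. The average extract effect had 3 upward and 1 downward, against 9.66%. G6pc, the last enzyme of glucose release, was at 11.28 ± 0.34 in low-fat control and 10.60 ± 0.36 in high-fat control arrays, with a log2 difference of −0.69 (SE 0.24, adjusted p = 0.586). Pck1, an early enzyme of gluconeogenesis, was at −0.31 for the average diet effect (SE 0.10, adjusted p = 0.645). Srebf1, the lipogenic regulator that insulin induces, was at 7.97 ± 0.16 in low-fat control and 8.82 ± 0.16 in low-fat MSX arrays, without overlap, a log2 difference of 0.85 (SE 0.20, adjusted p = 0.185). Foxo3, a relative of FOXO1, was at 0.19 in that comparison (SE 0.15, adjusted p = 0.802). The average extract difference of Srebf1 was 0.64 (SE 0.14, unadjusted p = 0.00062, adjusted p = 0.0989 by limma). Ppargc1a, a coactivator of the fasting response, was at 7.65 ± 0.20 in high-fat control and 6.97 ± 0.46 in high-fat MSX arrays (SD, n = 3), a log2 difference of −0.68 (SE 0.22, adjusted p = 0.567). For diet with extract the log2 differences were −0.74 for Ppargc1a (adjusted p = 0.977 by limma) and −0.58 for Srebf1. G6pc was at −0.68 and Pck1 at −0.30 there (adjusted p = 0.999 for these and Srebf1, limma). Each was without overlap, as were 9.44% of all genes.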

How the data were processed

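Values were deposited by the authors on a log2 scale, 1 per probe set and array. The submitters' processing notes name the Transcriptome Analysis Console. Its version and the method of summarization and normalization are not stated in the labels or files used here. They were used as deposited. Array medians lay between 4.68 and 4.75, correlations of 2 arrays between 0.973 and 0.984, and no 2 columns were identical. Of 41345 probe sets, 23521 had 1 gene symbol in the platform annotation, 1814 had several and 16010 were not listed. The probe set of highest mean was kept for each of 22180 genes.

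For the tests, limma 3.58.1 ran under R 4.3.3 (4 group means, 12 arrays, eBayes defaults, two-sided, 8 residual and 5.18 prior degrees of freedom). Adjusted p is Benjamini-Hochberg over all 22180 genes, with a threshold of 0.05. The 7 comparisons were diet without and with extract, extract on each diet, the difference of the extract effects and both averages. An exact permutation of 3 arrays against 3 cannot go below 0.1. Correlations used 100000 permutations, two-sided. The number of arrays limits the precision. The procedure was tested on simulated data.

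Named genes were the 8 members, the 2 genes of lowest p per comparison in each list, and the 3 nearest genes per member. Ghr, and Alb and Serpina1a as the highest and lowest hepatocyte markers, were picked after their values were seen. All white adipocyte and pancreas markers were named. Members and lists were chosen with earlier results of these data known. Replicate numbers were checked for pairing: deviations of same-numbered arrays correlated between −0.13 and 0.11, over 0.1 in 2 of 18 pairs, so no pairing was used. Alternatives were quantile normalization, a filter on dim genes, another choice of probe set, fits of 2 groups, an intensity trend with a robust prior, a replicate block, and each array left out.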

Additional observations from a re-analysis of the deposited data

Results flagged for a closer look

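Igfbp2 stood out for opposite extract effects on the diets: each high-fat MSX array was above each high-fat control array and each low-fat MSX array was below each low-fat control array, and the difference of the extract effects was 1.09 on the log2 scale (SE 0.21). The test of that difference missed the threshold after adjustment over all genes (adjusted p = 0.664 by limma), and over the 12 fits with 1 array left out adjusted p ran from 0.0714 to 0.919. In the other settings it ran from 0.225 to 0.672. Dixon's test for an outlying array was not run on these groups of 3 arrays.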

How the results depend on the processing

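The call of Igfbp2 for diet without extract held in all 6 other settings (adjusted p 0.000264 to 0.0150), and its call for the average diet effect in all 5 (adjusted p 0.00342 to 0.0485). With arrays left out the number of the 8 genes past the threshold was 0 to 1 for diet without extract, for MSX on the low-fat diet and for the average diet effect; for MSX on the low-fat diet it was 1 with dim genes left out and 1 with the intensity trend and robust prior. Over all genes, leaving out dim genes changed the counts from 4 to 11 for diet without extract, from 8 to 19 and from 35 to 71 for MSX on the high-fat and low-fat diets, from 5 to 11 for the average diet effect and from 58 to 173 for the average extract effect. The intensity trend and robust prior gave 11, 28, 77, 11 and 151 in that order. Fits of only the 2 groups compared gave 2 and 10 for MSX on the high-fat and low-fat diets. The replicate block gave 5 and 20 there, and changed no call of the 8 genes; with it adjusted p of Igfbp2 was 0.0102 for diet without extract. With arrays left out these counts ran from 1 to 5 for diet without extract, 2 to 6 and 6 to 28 for MSX on the high-fat and low-fat diets, 0 to 1 for diet with extract and for the difference of the extract effects, 1 to 7 for the average diet effect and 34 to 63 for the average extract effect.

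Of the log2 differences of the 8 genes that did not pass, Igf1 for the average extract effect changed sign with quantile normalization, to −0.0081. With arrays left out, these had ranges on both sides of 0, none past the threshold. Diet without extract: Igfbp1 −0.45 to 0.0555 and Igfbp5 −0.0284 to 0.25. MSX on the high-fat diet: Igfbp1 −0.69 to 0.52, Igfbp3 −0.21 to 0.19, Igfbp5 −0.23 to 0.0469 and Igfbp7 −0.48 to 0.0184. MSX on the low-fat diet: Igfbp1 −0.18 to 0.32. Diet with extract: Igf1 −0.12 to 0.10, Igfbp1 −0.96 to 0.25, Igfbp3 −0.38 to 0.0176 and Igfbp7 −0.17 to 0.0668. Difference of the extract effects: Igfbp1 −0.78 to 0.43. Average diet effect: Igfals −0.11 to 0.0476, Igfbp1 −0.57 to 0.0334, Igfbp3 −0.10 to 0.10 and Igfbp7 −0.0226 to 0.23. Average extract effect: Igf1 −0.0567 to 0.0539, Igfals −0.0475 to 0.15, Igfbp1 −0.30 to 0.30 and Igfbp7 −0.17 to 0.0798. The cause was not tested for any of these, beyond the fewer arrays or genes in such fits. The choice of probe set moved no value of the 8 genes, since each has 1 probe set.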
